A study of Mus musculus with 8 samples.

Results

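Transcripts of p53, its target genes and the core apoptosis machinery were measured by RNA sequencing in tumor masses of N2A cells grown in mice given vehicle or SR59230A. The members were 38 genes listed by symbol for their roles, chosen with earlier results of these data known. Of these, 26 were on a list of p53 and its targets and 12 on a list of core apoptosis genes. They were 38 of the 35458 genes to which transcripts could be summed, and 37 of them were among the 15207 genes that passed the filter on low counts. N2A (Neuro-2a) is an established mouse neuroblastoma line, and SR59230A is an antagonist of the β3-adrenergic receptor. All 8 tumors came from A/J mice, described in the methods as female and 4 weeks old, which had received 1000000 N2A cells under the skin of the flank.

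The 4 vehicle tumors, numbered 0 to 3 in the labels, came from mice given physiological solution. The 4 SR59230A tumors, numbered 1 to 4, came from mice given 10 mg/kg of the drug into the peritoneum 2 times a day once a tumor could be felt. The treatment scheme ran for 8 days before tumors were collected. The model rests on a single tumor line, and each sample was a whole tumor mass that also held host cells. The labels do not state that each tumor came from a separate animal, so p-values measure the spread between these samples. The study describes its tumor sequencing as done in duplicate, and how that relates to the deposited tumors is not given in the sources used here, so each SD, SE and p takes every tumor as a separate sample. In such bulk RNA, fewer cells of a type and less RNA per cell cannot be told apart.

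p53 is a transcription factor that is held at low levels in resting cells by the ubiquitin ligase Mdm2, with its partner Mdm4, and that accumulates after DNA damage and other stress. It then activates genes that halt the cell cycle, repair DNA or trigger cell death, and it activates Mdm2 itself, which closes a feedback loop. In the mitochondrial route to apoptosis, BH3-only proteins relieve the block by Bcl2 and its relatives, Bax and Bak1 open the outer mitochondrial membrane, and released cytochrome c assembles Apaf1 and Casp9 into the apoptosome. Much of the control of p53 acts on the protein, which these RNA data do not measure.

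The DNA that p53 binds is made of repeats of a short consensus, here called the p53 decamer. The decamer was looked up on both strands in windows from 250 bases before to 50 bases after annotated starts (RefSeq, GRCm38.p6). It was present in the windows of 10 of the 18 genes of the p53 list that had one (55.6%), in 0 of 12 core apoptosis genes, in 4 of 24 other p53 targets (16.7%), in 4 of 24 other apoptosis genes (16.7%) and in 9.55% of the 27025 symbols with a window. A gene could have several windows (32851 for the 27025 symbols) and was counted when any of them held the decamer. The number of windows per gene was not compared between lists. Polk and Sesn1, counted on the p53 list, had their matches before starts inside the gene. Matches are given in capitals, with the flanking bases in lower case, for the members described in full whose window held one upstream of the start. They are printed to show what sequence lies before annotated starts of the genes whose levels follow. A match is a description of the letters and not evidence of binding.
Cdkn1a, chr17:29090896-29090925, plus strand: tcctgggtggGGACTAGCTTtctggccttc
Cdkn1a, chr17:29090918-29090947, plus strand: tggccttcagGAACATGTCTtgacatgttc
Ccng1, chr11:40755452-40755481, minus strand: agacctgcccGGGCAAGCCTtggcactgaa
Mdm2, chr10:117710925-117710954, minus strand: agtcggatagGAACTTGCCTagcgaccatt
Bax, chr7:45467080-45467109, minus strand: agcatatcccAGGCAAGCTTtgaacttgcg
Trp53, chr11:69580274-69580303, plus strand: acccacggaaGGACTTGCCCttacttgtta
Ei24, chr9:36797325-36797354, minus strand: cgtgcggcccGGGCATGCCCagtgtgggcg
The 2 matches of Cdkn1a lay in the same window, with first bases 73 and 51 bases before its annotated start. Windows of these members without a match are not printed. The match before Ccng1 began 185 bases upstream, and that before Trp53 began 75 bases upstream. The window of Btg2 held no match, which says only that these letters are not in it.

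Libraries held 23484190 (SR59230A tumor 3) to 44045575 (vehicle tumor 1) estimated reads. Reads of satellite-like transcripts took 12.2% of vehicle tumor 0, 8.98% of vehicle tumor 3 and 6.68% of SR59230A tumor 4, and under 1% of each other library. The summed CPM (read counts scaled to library size with TMM factors) of 6 skeletal muscle markers was 2081 in SR59230A tumor 1 and 185 in SR59230A tumor 2, and at most 25.9 in the others. Neuroblastoma markers, 10 genes such as Th and Dbh, summed to 752 to 1099 CPM in vehicle tumors and to 577 to 785 CPM in SR59230A tumors, and 0 of them had under 10 reads in every tumor. Macrophage markers, 8 genes, summed to 220, 295, 260 and 527 CPM in vehicle tumors 0 to 3 and to 355, 340, 540 and 414 CPM in SR59230A tumors 1 to 4. Mitochondrial reads took 1.30% to 7.47% of a library, the most in tumor 3 of each group. The part of these in the members' values was not tested. Of 6 T cell markers, Cd3e, Cd3g and Cd2 had under 10 reads in every tumor. Tumors 1 and 2 of both groups stood together in many genes: 8.88% of the genes tested were higher in all 4 of them than in the other 4 tumors, and 8.41% were lower.

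Across all 8 tumors no member passed the test of SR59230A against vehicle. A gene was called when its Benjamini-Hochberg adjusted p was under 0.05 and its level differed by 0.5 or more on the log2 scale. By edgeR's quasi-likelihood test 0 of 15207 genes (0%) met this, with 706 genes (4.64%) at an unadjusted p under 0.05, 2.22% higher and 2.42% lower under SR59230A. The adjusted p of the 37 members tested ran from 0.996 to 1.00. DESeq2 called 36 of 27494 genes (0.131%) and none of the members, whose lowest DESeq2 adjusted p was 0.218 (Btg2). At an unadjusted edgeR p under 0.05 stood 3 of the 25 p53 list genes tested, Ccng1 and Cdkn1a with higher and Btg2 with lower levels, and 1 of the 12 core apoptosis genes, Bid, with a lower level.

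On the p53 list the log2 fold change was above 0 for 16 of 25 genes and below it for 9, where 49.6% of all genes tested were above 0. The median was 0.08 on the list and -0.002 over all genes tested. On the core apoptosis list 3 of 12 genes were above 0 and 9 below, with a median of -0.05, but 6 were above 0 with transcript length in the fit and 7 with limma on TPM (medians 0.050 and 0.037 with 0.1 and 1 added before taking logs). With limma on TPM the median of all genes was itself 0.058 and 0.046, above those of the core list. For the p53 list the same alternatives gave 17 and 19 of 25 above 0, and DESeq2 gave 15 (median 0.073). These medians had no test. In centered log2 CPM the tumor medians of the p53 list ran from -0.11 (vehicle tumor 3) to 0.15 (SR59230A tumor 4), so that they overlapped between groups, with SR59230A tumor 2 at -0.09.

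**Figure D1:**
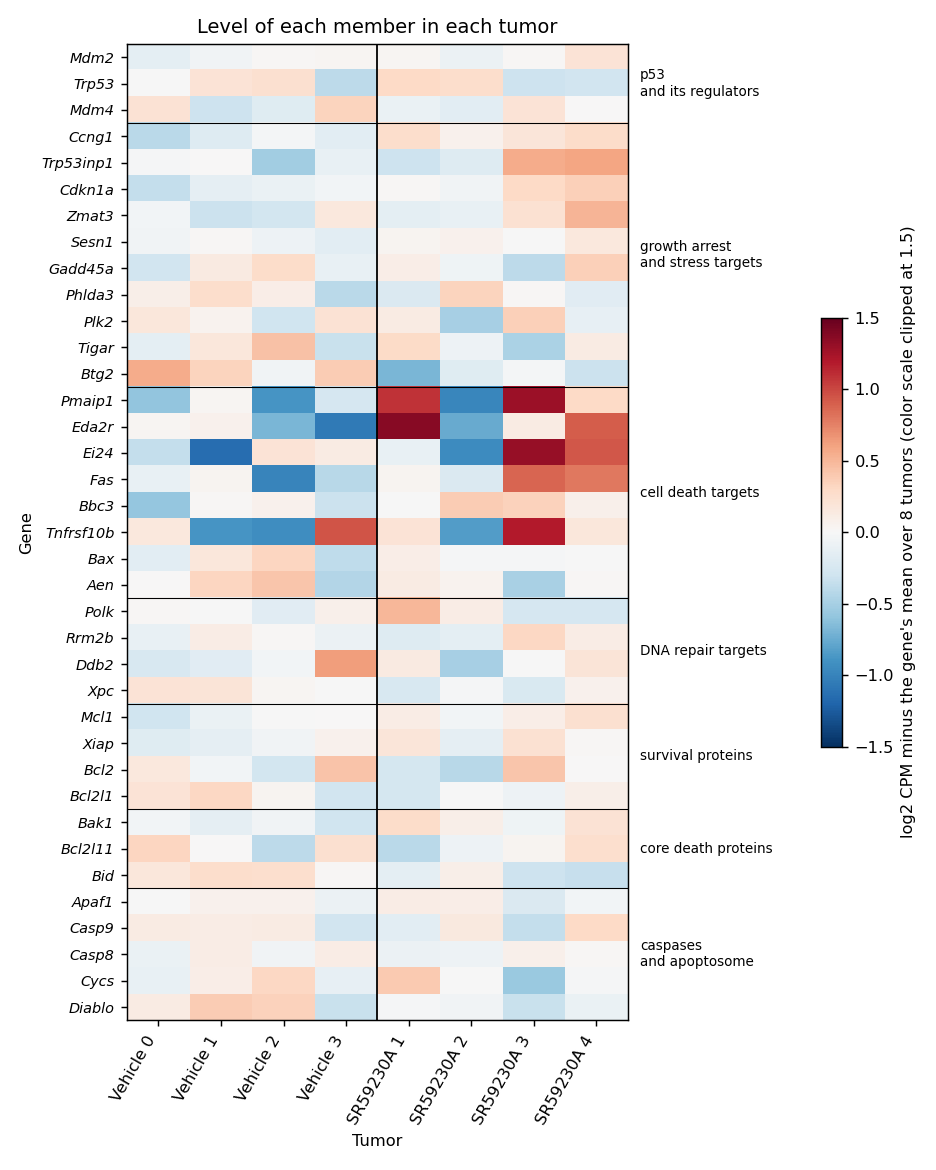
Level of each of the 37 tested members (rows, grouped by role) in each tumor (columns), as log2 CPM minus the gene's mean over the 8 tumors, in log2 units on a color scale clipped at 1.5. Ccng1 is mostly blue under vehicle and red under SR59230A and Btg2 the reverse. Among the cell death targets Pmaip1, Eda2r, Ei24 and Tnfrsf10b vary widely between tumors of the same group, while Bax varies little under SR59230A.

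Trp53 itself, which encodes p53 (chr11:69580359-69591873, GRCm38, plus strand), did not separate the groups. Its levels were 44.96, 52.1, 53.2 and 34.5 CPM in vehicle tumors 0 to 3, and 55.5, 54.1, 36.5 and 36.9 CPM in SR59230A tumors 1 to 4. Tumors 1 and 2 of both groups were above the other 4 tumors. The group means were 46.2 ± 8.62 and 45.7 ± 10.5 CPM (SD, n = 4). The log2 fold change was -0.013, with an approximate 95% interval of -0.39 to 0.36 (edgeR adjusted p = 0.999).

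Mdm2, the ligase that marks p53 for destruction and a p53 target, stood at 75.2, 80.4, 84.6 and 85.1 CPM in the vehicle tumors and at 85.1, 78.4, 84.6 and 96.1 CPM in the SR59230A tumors. The groups overlapped, and SR59230A tumor 4 was the highest. Its log2 fold change was 0.08, with an interval of -0.10 to 0.27 (edgeR adjusted p = 0.996), and 0.17 when average transcript length entered the fit.

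Mdm4, which binds p53 and blocks its activity, measured 71.3, 49.8, 54.1 and 77.4 CPM under vehicle and 57.4, 55.1, 70.8 and 62.1 CPM under SR59230A. Here tumors 1 and 2 of both groups were below the other 4, the opposite of Trp53. Between groups the log2 fold change was -0.04 (approximate 95% interval -0.35 to 0.26, edgeR adjusted p = 0.996), and it became 0.19 when average transcript length entered the fit. Retained-intron transcripts made up 33.4%, 19.5%, 23.9% and 43.9% of the Mdm4 TPM (a level per transcript length) in the vehicle tumors and 45.01%, 20.8%, 60.6% and 35.9% in the SR59230A tumors. The tumors with the most, vehicle 3 and SR59230A 1 and 3, also had the highest share of retained-intron reads in the whole library, 3.76%, 3.71% and 4.20% against 2.48% to 2.95% in the others, and the part of this in the Mdm4 values was not tested.

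Among 10 targets that act in growth arrest and stress responses, 6 had a log2 fold change above 0 and 4 below, with a median of 0.07. Ccng1, which encodes cyclin G1, a regulator of the Mdm2 loop (chr11:40748552-40755311, minus strand), had the lowest p of the members. It stood at 48.8, 56.6, 63.0 and 57.8 CPM in the vehicle tumors and at 77.2, 67.7, 73.2 and 77.8 CPM in the SR59230A tumors. All 4 SR59230A tumors were above all 4 vehicle tumors, and no other tested member of either list had groups without overlap. Of all genes tested 2.61% had none, 1.32% with SR59230A above and 1.29% with SR59230A below. The means were 56.5 ± 5.86 and 74.0 ± 4.66 CPM (SD, n = 4), 1.31-fold higher under SR59230A, with a log2 fold change of 0.39 ± 0.10 (SE). Its unadjusted edgeR p was 0.0041 and the adjusted p 0.996, and the exact two-sided permutation p was 0.0286, the smallest that 4 against 4 tumors can give. Leaving out any 1 tumor kept the log2 fold change between 0.32 and 0.45.

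Cdkn1a encodes p21, the inhibitor of cyclin-dependent kinases through which p53 arrests the cell cycle (chr17:29090976-29100727, plus strand). Vehicle tumors held 13.9, 16.1, 16.6 and 17.2 CPM, and SR59230A tumors 18.0, 17.0, 21.8 and 22.8 CPM. SR59230A tumor 2 lay just below vehicle tumor 3, and the other 3 SR59230A tumors were above every vehicle tumor. The log2 fold change was 0.32 ± 0.13 (SE), or 1.25-fold (unadjusted edgeR p = 0.0416, adjusted p = 0.996, exact permutation p = 0.0571). It was 0.10 within tumors 1 and 2 of each group and 0.51 in the other 4 tumors.

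Btg2, an antiproliferative target of p53 and an early response gene (chr1:134075170-134079120, minus strand), went the other way. Its levels were 43.6, 37.3, 28.7 and 38.8 CPM in the vehicle tumors and 18.4, 26.1, 29.1 and 23.8 CPM in the SR59230A tumors. Only vehicle tumor 2 and SR59230A tumor 3 overlapped. Means of 37.1 ± 6.19 and 24.4 ± 4.50 CPM (SD, n = 4) made it 1.52-fold lower under SR59230A, with a log2 fold change of -0.61 ± 0.17 (SE, unadjusted edgeR p = 0.00547, adjusted p = 0.996, exact permutation p = 0.0571). The value was -0.57 in tumors 1 and 2 and -0.65 in the other 4, and SR59230A tumor 1, the lowest, was also the tumor with the most muscle marker reads. Without both muscle-containing tumors it was -0.49, and without the 3 tumors with satellite-like reads -0.42.

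The other growth arrest and stress targets overlapped between groups. Trp53inp1, a stress-induced partner of p53 in cell death and autophagy, measured 8.66 to 12.4 CPM under vehicle and 10.0, 10.9, 18.3 and 18.7 CPM in SR59230A tumors 1 to 4, so that the excess lay in tumors 3 and 4. Zmat3, which encodes an RNA-binding protein, was likewise highest in SR59230A tumors 4 and 3, at 104 and 85.8 CPM, with 81.4 CPM in vehicle tumor 3. Sesn1, which restrains growth signalling through mTORC1, ran from 21.1 to 24.0 CPM under vehicle and from 23.5 to 26.3 CPM under SR59230A, a log2 fold change of 0.13. The remaining 4 genes, Gadd45a, Phlda3, Plk2 and Tigar, had log2 fold changes from -0.07 to 0.01. Adipocyte markers were also highest in SR59230A tumors 3 and 4, with a sum of 124 and 67.3 CPM for 4 genes against 9.38 to 39.8 CPM elsewhere, and Lep under 10 reads throughout. Their part in these values was not tested.

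**Figure D2:**
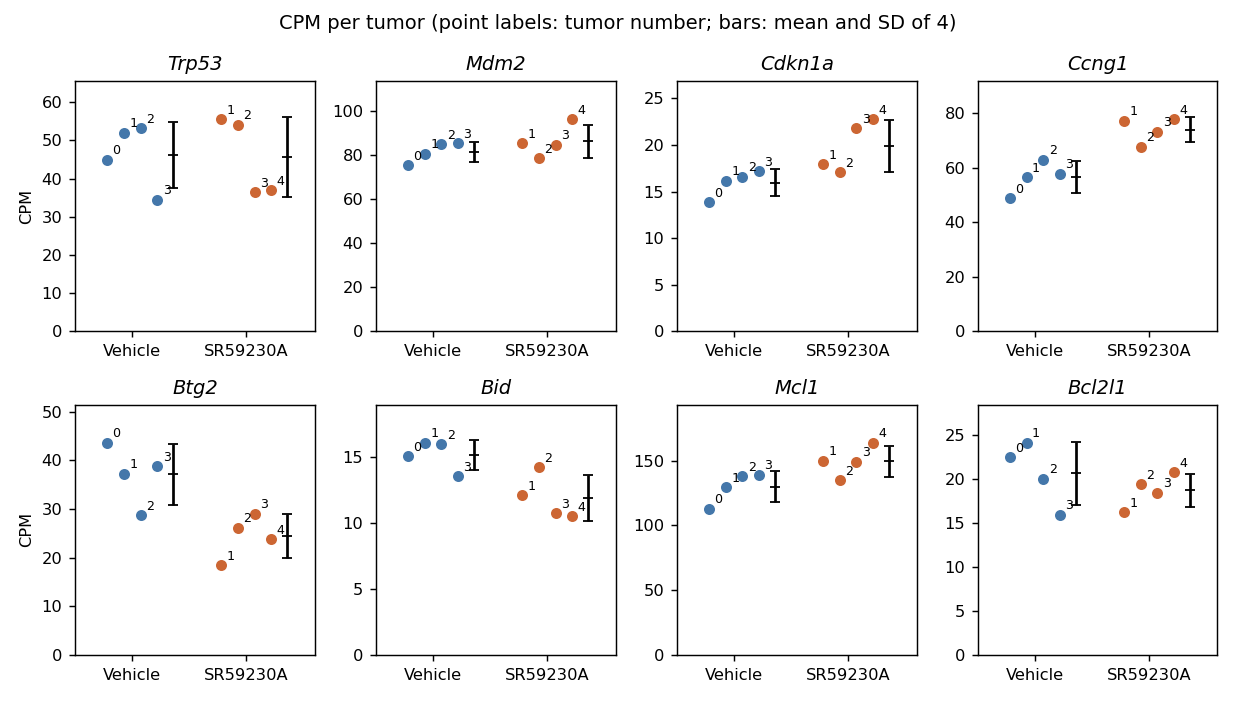
CPM of 8 members in each tumor on linear axes that start at 0, with vehicle tumors in blue, SR59230A tumors in orange, tumor numbers beside the points and bars for the mean and SD of 4 tumors. Ccng1 has no overlap between groups (48.8 to 63.0 against 67.7 to 77.8 CPM), Btg2 and Bid sit lower under SR59230A with an overlap, and Trp53 splits by tumor number within both groups.

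Of 9 targets that act in cell death, 8 passed the filter and 7 of these had a log2 fold change above 0, where 49.6% of all genes tested did. Bax, at 0.003, was among the 7. The median was 0.56, but none had an unadjusted edgeR p under 0.05. With DESeq2 and with transcript length in the fit 6 of 8 were above 0 (medians 0.55 and 0.63). With limma on log2(TPM + 0.1) and log2(TPM + 1) 7 were, with medians of 0.61 and 0.29. In tumors 1 and 2 of each group 5 of 8 were above 0 (median 0.22), and in the other 4 tumors 7 of 8 (median 0.81). The genes with the largest values were those with the fewest reads. Pmaip1 (Noxa, a BH3-only protein) had 9 to 39 reads per tumor, or 0.331, 0.512, 0.272 and 0.421 CPM under vehicle and 1.06, 0.255, 1.22 and 0.618 CPM under SR59230A. SR59230A tumor 2 was below every vehicle tumor, while the other 3 SR59230A tumors were above them all. The log2 fold change of 1.00 had an SE of 0.50 (edgeR adjusted p = 0.996).

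Eda2r, a receptor of the tumor necrosis factor family, had 14 to 105 reads, with 1.14, 1.17, 0.694 and 0.536 CPM in vehicle tumors and 2.86, 0.658, 1.22 and 2.09 CPM in SR59230A tumors. Again SR59230A tumor 2 was within the vehicle range and the other 3 were above it. Its log2 fold change was 0.94 ± 0.48 (SE), and it ran from 0.57 without SR59230A tumor 1, the tumor with the most muscle marker reads, to 1.22 without tumor 2. Without both muscle-containing tumors it was 0.90.

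Fas, the death receptor, stood at 12 to 36 reads and showed 0.663, 0.738, 0.362 and 0.536 CPM under vehicle and 0.737, 0.616, 1.31 and 1.24 CPM under SR59230A. Only SR59230A tumors 3 and 4 exceeded the vehicle range, and the log2 fold change was 0.74 ± 0.38 (SE).

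Ei24, a p53-induced gene of the endoplasmic reticulum, measured 2.58, 1.496, 3.80 and 3.60 CPM under vehicle and 3.06, 1.72, 8.18 and 6.32 CPM under SR59230A. The excess again lay in SR59230A tumors 3 and 4. Retained-intron transcripts made up 32.8% to 89.4% of its TPM, and its annotated coding transcript Ei24-201 was not among those used here, so the value of this gene is uncertain. Its log2 fold change was 0.74 ± 0.49 (SE) over all tumors and -0.14 in tumors 1 and 2 of each group.

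Bbc3 (Puma), the BH3-only protein most closely tied to death by p53, had 87 to 292 reads. It measured 3.20, 4.84, 5.01 and 3.83 CPM in the vehicle tumors and 4.77, 6.20, 6.08 and 5.05 CPM in the SR59230A tumors. The 2 highest vehicle tumors lay above SR59230A tumor 1, and the other 3 SR59230A tumors were above all vehicle tumors. The log2 fold change was 0.39, with an approximate 95% interval of -0.03 to 0.80 (edgeR adjusted p = 0.996, exact permutation p = 0.114).

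Bax, the pore-forming effector, had the same mean in both groups, 39 ± 8.36 CPM under vehicle and 39.1 ± 1.69 CPM under SR59230A (SD, n = 4). Vehicle tumors stood at 34.7, 43.4, 48.2 and 29.7 CPM, and SR59230A tumors at 41.6, 38.1, 38.1 and 38.6 CPM, all within the vehicle range. This gave a log2 fold change of 0.003 with an interval of -0.29 to 0.30. Tnfrsf10b, a death receptor for TRAIL, had 2.90 to 10.6 CPM under vehicle and 3.10 to 12.6 CPM under SR59230A, with tumor 3 of each group the highest. Aen, an apoptosis-enhancing nuclease, ran from 36.8 to 66.8 CPM and from 35.6 to 54.3 CPM, a log2 fold change of -0.17. Perp, a membrane protein of desmosomes that p53 induces, had 3 to 10 reads per tumor and did not pass the filter.

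The 4 targets that act in DNA repair had log2 fold changes from -0.21 to 0.08. Xpc, which recognizes damage in nucleotide excision repair, was the lowest of these, at 23.7 to 27.3 CPM under vehicle and 20.0 to 24.9 CPM under SR59230A (edgeR adjusted p = 0.996). Ddb2, its partner in recognizing ultraviolet damage, stood at -0.11, Rrm2b, a ribonucleotide reductase subunit, at 0.05 and Polk, a translesion polymerase, at 0.08 on the log2 scale.

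**Figure D3:**
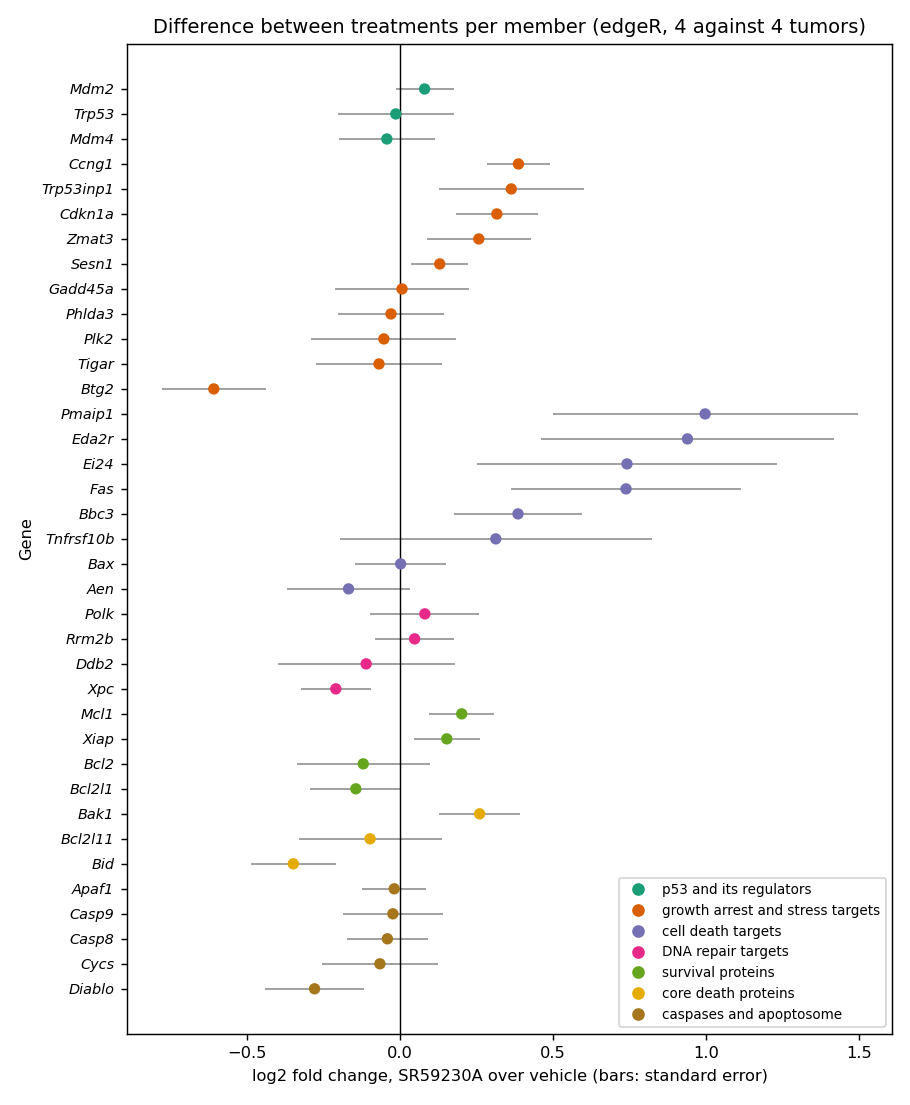
edgeR log2 fold change of SR59230A over vehicle for the 37 tested members (4 against 4 tumors), grouped by role, with bars of 1 standard error. The widest bars belong to Pmaip1, Eda2r, Ei24, Fas and Tnfrsf10b. The bars of Ccng1, Btg2 and Bid do not reach 0, and neither do those of other members such as Pmaip1, Eda2r and Fas. No member was called.

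Of the survival proteins, Mcl1, a short-lived relative of Bcl2, was the most abundant. It measured 112.9, 129.3, 137.9 and 139.1 CPM in the vehicle tumors and 149.8, 134.9, 149.1 and 163.7 CPM in the SR59230A tumors. SR59230A tumor 2 lay within the vehicle range and the other 3 above it. Its log2 fold change was 0.20, with an interval of -0.01 to 0.41 (edgeR adjusted p = 0.996, exact permutation p = 0.0857), and it was 0.053 when average transcript length entered the fit.

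Xiap, an inhibitor of caspases, stood at 57.5, 59.4, 62.6 and 67.7 CPM under vehicle and at 73.8, 59.0, 76.4 and 66.0 CPM under SR59230A, a log2 fold change of 0.15. Bcl2, which holds BH3-only proteins and Bax in check, measured 14.0, 12.2, 10.3 and 16.9 CPM under vehicle and 10.4, 9.40, 16.7 and 12.6 CPM under SR59230A. Both groups overlapped for these genes, and tumors 3 and 0 of vehicle and 3 and 4 of SR59230A were the highest for Bcl2. Its log2 fold change was -0.12 with an interval of -0.54 to 0.31.

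Bcl2l1, which encodes Bcl-xL, had 22.5, 24.1, 20.0 and 15.9 CPM in vehicle tumors and 16.2, 19.4, 18.4 and 20.7 CPM in SR59230A tumors. All SR59230A tumors lay within the vehicle range, and the log2 fold change was -0.14 with an interval of -0.43 to 0.15 (edgeR adjusted p = 0.996).

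Bid, the BH3-only protein that carries the death receptor signal to mitochondria once Casp8 has cut it (chr6:120891930-120916853, minus strand), had the lowest p of the core list. Its levels were 15.1, 16.1, 16.0 and 13.6 CPM under vehicle and 12.1, 14.3, 10.8 and 10.5 CPM under SR59230A. SR59230A tumor 2 was above vehicle tumor 3, and the other 3 SR59230A tumors were below every vehicle tumor. Bid was 1.27-fold lower under SR59230A, a log2 fold change of -0.35 ± 0.14 (SE, unadjusted edgeR p = 0.0321, adjusted p = 0.996, exact permutation p = 0.0571). It was -0.28 in tumors 1 and 2 and -0.44 in the other 4 tumors.

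Bak1, which opens the mitochondrial membrane alongside Bax, measured 11.7, 10.9, 11.6 and 9.77 CPM in vehicle tumors and 14.5, 12.8, 11.4 and 13.9 CPM in SR59230A tumors. Only SR59230A tumor 3 lay inside the vehicle range. This gave a log2 fold change of 0.26 ± 0.13 (SE, edgeR adjusted p = 0.996). Bcl2l11 (Bim), another BH3-only protein, stood at 3.20 to 5.27 CPM and 3.16 to 5.01 CPM, a log2 fold change of -0.10.

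All 5 genes of the caspase and apoptosome group had a log2 fold change below 0, from -0.28 to -0.02, though 2 were above it with transcript length in the fit and 3 with limma on TPM, where the group's median of 0.036 and 0.029 was below that of all genes (0.058 and 0.046). None had an unadjusted edgeR p under 0.05. Diablo, which releases caspases from Xiap, was the lowest of them, with 43.8, 52.6, 51.3 and 31.9 CPM under vehicle and 39.8, 38.8, 31.9 and 37.7 CPM under SR59230A. Vehicle tumors 0 to 2 were above all SR59230A tumors, and vehicle tumor 3 was level with the lowest of these, SR59230A tumor 3. Its log2 fold change was -0.28 with an interval of -0.59 to 0.04. Cycs (cytochrome c) was at -0.06, Casp8, the initiator of the death receptor route, at -0.04, Casp9 at -0.02 and Apaf1 at -0.02. The annotation also holds 2 pseudogenes of Cycs, with which reads may be shared.

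Levels between genes were compared only in TPM. Bax was the highest member, with a mean of 88.5 TPM (48.5 to 120 over the 8 tumors), followed by Mcl1 at 80.3 TPM (62.5 to 97.4) and Mdm2 at 53.6 TPM (39.6 to 66.6). The ranges of these 3 genes overlapped. Trp53, at 42.5 TPM (21.4 to 60.7), ranked 7 of 38. At the low end stood Fas at 0.792, Eda2r at 0.540, Pmaip1 at 0.374 and Perp at 0.190 TPM. Bcl2 at 2.99 TPM (2.51 to 3.61) was below every tumor's value of Bcl2l1 (7.72 to 19.9) and of Mcl1.

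**Figure D4:**
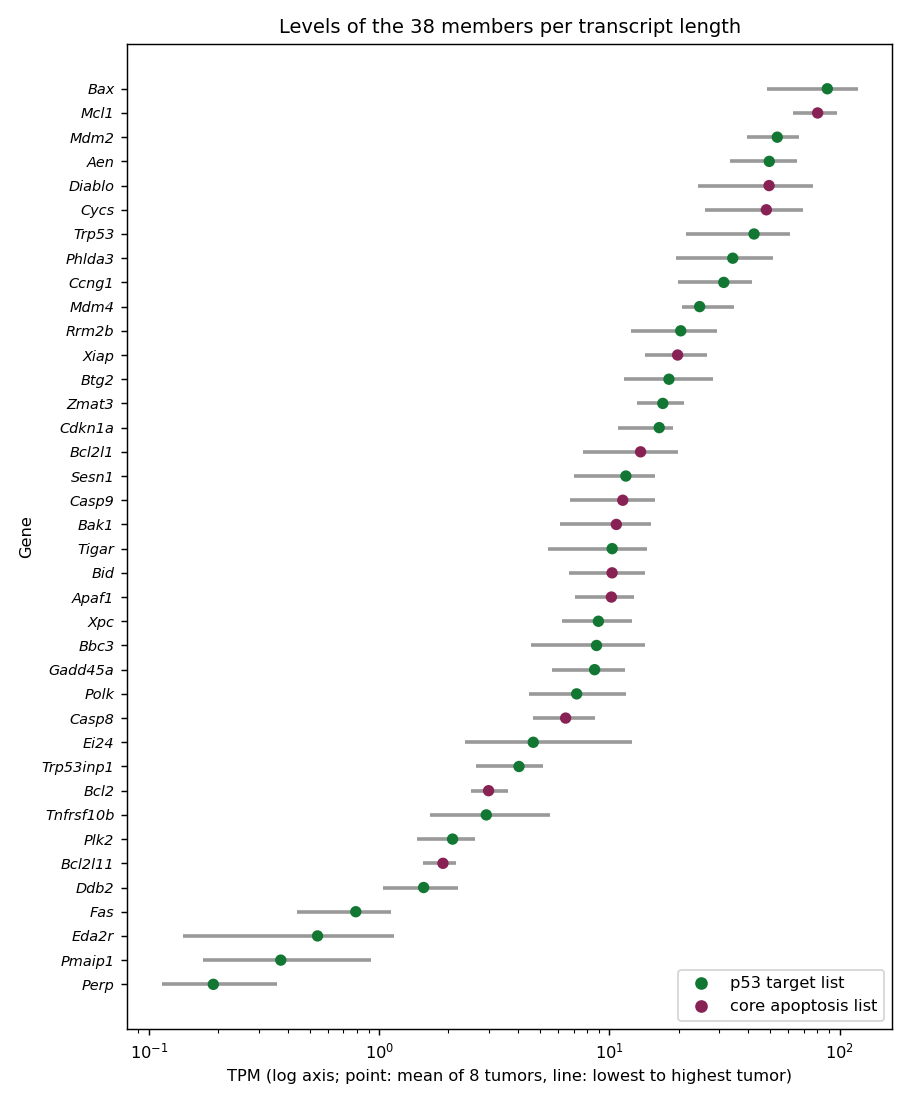
Levels of the 38 members in TPM on a log axis, with a point for the mean of 8 tumors and a line from the lowest to the highest tumor; green marks the p53 list and purple the core apoptosis list. Bax and Mcl1 are at the top (88.5 and 80.3 TPM), and Fas, Eda2r, Pmaip1 and Perp are below 1 TPM.

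Of the 37 tested members 8 were split by tumor number. Trp53, Aen, Apaf1 and Cycs were higher in tumors 1 and 2 of both groups than in the other 4 tumors, and Mdm4, Zmat3, Bcl2 and Bcl2l11 were lower. These 4 genes in each direction are to be read against 8.88% and 8.41% of all genes tested. Treatment was also compared within each set of tumors, 2 against 2. On the p53 list 12 of 25 genes were above 0 in tumors 1 and 2, with a median of -0.01, where 51.8% of all genes tested in them were above 0. In the other 4 tumors 17 of 25 were above 0, with a median of 0.17, against 48.6% of all genes. On the core list 5 of 12 were above 0 in tumors 1 and 2 and 6 of 12 in the others, with medians of -0.08 and -0.03. In the caspase and apoptosome group 2 of 5 were above 0 in each set, so its shared direction over all 8 tumors was not seen in either.

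The direction was the same in both sets for 14 of 25 genes of the p53 list and 7 of 12 of the core list, beside 53% of all genes measured in both. Those above 0 in both sets were Cdkn1a, Ccng1, Sesn1, Zmat3, Bbc3, Pmaip1, Fas, Eda2r and Tnfrsf10b of the p53 list and Mcl1, Bak1 and Xiap of the core list. Those below 0 in both were Btg2, Plk2, Aen, Xpc and Ddb2, and Bcl2, Bcl2l11, Bid and Diablo. In tumors 1 and 2 Ccng1 was at 0.28 and in the others at 0.49 on the log2 scale. When the set entered the fit as a term, edgeR again called 0 genes.

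**Figure D5:**
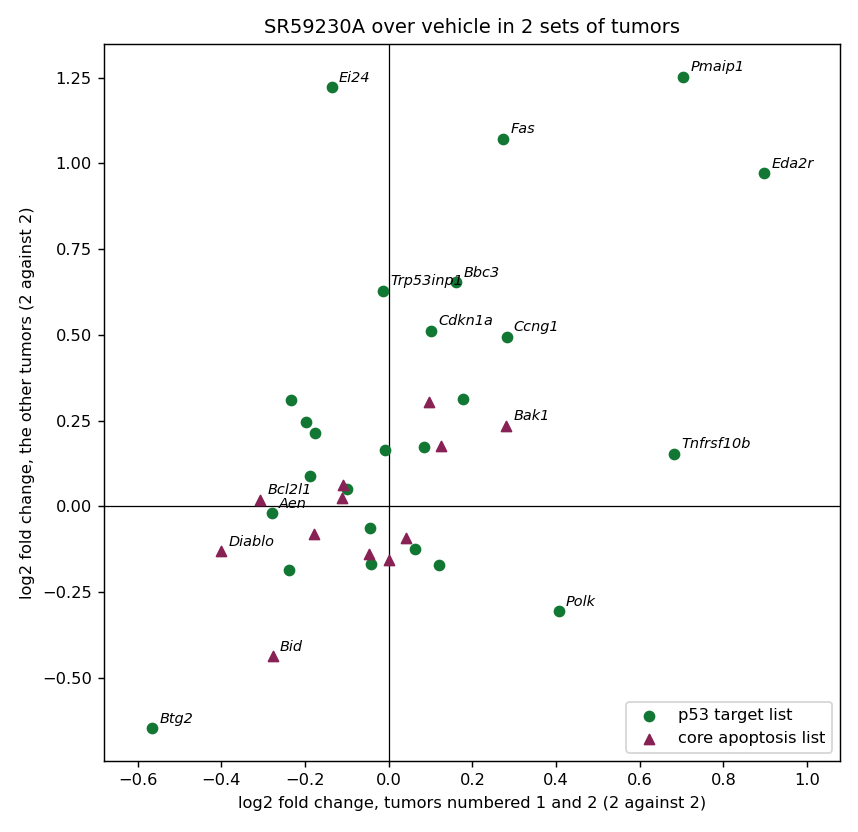
edgeR log2 fold change of SR59230A over vehicle in the tumors numbered 1 and 2 (horizontal axis, 2 against 2) and in the other tumors (vertical axis, 2 against 2), with a point per tested member; circles are the p53 list and triangles the core apoptosis list. Btg2 (-0.57 and -0.65) and Bid (-0.28 and -0.44) are low on both axes and Ccng1 (0.28 and 0.49) is high on both. Ei24, Polk, Rrm2b and Bax are among the members that differ in sign.

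Use of transcripts was compared by the share of the leading transcript in each gene's TPM. Of 28 members that could be compared, 0 had an adjusted exact permutation p under 0.05, 0 had an unadjusted p under 0.05, and the lowest adjusted p was 0.831. The lowest unadjusted p was for the leading coding transcript of Casp8, with 90.3%, 89.0%, 85.9% and 96.3% of its TPM under vehicle and 70.3%, 77.9%, 90.2% and 78.3% under SR59230A. SR59230A tumor 3 lay among the vehicle tumors and the other 3 below them, a difference of -11.2 percentage points (exact permutation p = 0.0857). The leading coding transcript of Bbc3 held 93.2%, 90.1%, 91.3% and 42.3% under vehicle and 62.0%, 66.9%, 45.6% and 57.5% under SR59230A. Vehicle tumor 3 was below all SR59230A tumors, and the exact permutation p was 0.143. For Trp53 the share of Trp53-203 was 49.9% in vehicle tumor 1 and 70.2% to 81.3% in the other 7 tumors. The leading transcript of Bak1 is annotated as a target of nonsense-mediated decay and held 38.3% to 74.4% of its TPM, so that Bak1 reads do not stand for coding RNA alone.

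The wider pathway was described over 74 further genes, chosen for their roles: other p53 targets, kinases and cofactors of p53, and other apoptosis genes. Of these 68 passed the filter, 44 had a log2 fold change above 0 (49.6% of all genes did) and 24 below, with a median of 0.04. None was called by edgeR or DESeq2, and 3 had an unadjusted edgeR p under 0.05, beside 4.64% of all genes tested. The other p53 targets had 15 of 23 above 0, the kinases and cofactors 12 of 18 and the other apoptosis genes 17 of 27. In 9 of the 68 genes tumors 1 and 2 of both groups were above the other 4 tumors, and in 0 below, beside 8.88% and 8.41% of all genes tested.

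Bmf, a BH3-only protein tied to the cytoskeleton, stood at 25.5, 25.8, 22.9 and 19.1 CPM under vehicle and at 15.7, 16.2, 18.4 and 18.1 CPM under SR59230A. All SR59230A tumors were below all vehicle tumors, at a log2 fold change of -0.45 ± 0.13 (SE, unadjusted edgeR p = 0.00626, adjusted p = 0.996, exact permutation p = 0.0286). Of the 68 genes, 1 was lower without overlap (Bmf) and 1 higher (Prkdc), beside 1.29% and 1.32% of all genes tested. Any gene without overlap between the groups has this permutation p, so it adds nothing to the lack of overlap.

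Prkdc, the DNA-dependent protein kinase that can phosphorylate p53, measured 62.4, 59.3, 59.9 and 67.7 CPM under vehicle and 74.2, 71.8, 73.6 and 72.7 CPM under SR59230A. The groups did not overlap, at a log2 fold change of 0.23 ± 0.08 (SE, adjusted edgeR p = 0.996, exact permutation p = 0.0286). Gdf15, a stress cytokine and p53 target, had 4.20, 10.5, 10.1 and 8.08 CPM under vehicle and 10.7, 18.3, 19.7 and 10.4 CPM under SR59230A. Vehicle tumor 1 slightly exceeded SR59230A tumor 4, and its log2 fold change was 0.84 ± 0.32 (SE, unadjusted edgeR p = 0.0261, adjusted p = 0.996, exact permutation p = 0.0571).

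Trp53bp1, a mediator of the response to DNA breaks, had a log2 fold change of -0.25, and Vdac2, a channel of the outer mitochondrial membrane that binds Bak1, one of -0.23, both at an edgeR adjusted p of 0.996. Abhd4, a lipase counted among p53 targets, stood at 2.54, 3.46, 13.6 and 12.7 CPM in vehicle tumors and at 12.4, 14.8, 15.2 and 16.0 CPM in SR59230A tumors. Vehicle tumors 0 and 1 were far below the rest, and the log2 fold change of 0.86 had an SE of 0.49.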

How the data were processed

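RNA of 8 tumors was sequenced as stranded total RNA libraries. The authors quantified reads with Salmon 1.5.1, and the deposited files hold estimated counts and TPM per transcript. The methods name a GRCm38 transcriptome and the submitters' notes GRCm39; the strand setting is not given in the sources used here. A deposited table of normalized counts per gene (12 of the 38 members) was not used. Of 116747 transcripts, 115685 (99.09%) were matched to GENCODE annotation of GRCm38, and gene totals of the estimated counts, rounded to whole numbers, covered 35458 genes. edgeR 4.0.16 (R 4.3.3) with TMM factors, filterByExpr and the quasi-likelihood test was applied to all genes, without covariates, and p-values were Benjamini-Hochberg adjusted over 15207 genes. CPM are TMM-scaled. Intervals are 1.96 SE to each side, an approximation that is narrower than the edgeR test allows. For Bak1 the interval of 0.004 to 0.52 excluded 0 at an unadjusted edgeR p of 0.0763. Single genes and transcript shares (mean of at least 100 reads, leading transcript at 5% to 95%) were tested by permuting the treatment labels over the 70 possible assignments (exact, two-sided). The script was tested on simulated data.

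Alternatives used DESeq2 1.42.0, limma 3.58.1 on log2(TPM + 0.1) and log2(TPM + 1), other scalings, length offsets and filters, subsets of tumors, a replicate block and leaving out each tumor. The members, lists, roles and alternatives were chosen with earlier results of these data known. Members described tumor by tumor were 9 taken for their roles, and in each list those without overlap between groups, the 5 with the smallest p and the 3 with the largest absolute log2 fold change; of the other genes, the 6 with the smallest p. Fas, Trp53inp1 and other members were added by value after they had been seen. A further gene of the neuroblastoma marker list is not reported here.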

Additional observations from a re-analysis of the deposited data

Results flagged for a closer look

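In 74 groups of 4 tumors (37 members in each treatment group) 3 held a tumor whose gap to its nearest neighbor exceeded Dixon's 95% limit, or 4.05%, where chance gives about 5%. Bax was at 41.6 CPM in SR59230A tumor 1, above 38.1 to 38.6 CPM in the other 3, a narrow range in which all SR59230A tumors lay within the vehicle range. Aen was at 35.6 CPM in SR59230A tumor 3, below 50.9 to 54.3 CPM in the others of that group. Casp9 was at 19.2 CPM in vehicle tumor 3, below 25.2 to 25.6 CPM in the other vehicle tumors.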

How the results depend on the processing

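No member or other pathway gene was called under any alternative (0 in each of the 3 lists), and the count of transcript shares past the threshold was 0 under each alternative. The median of the p53 list moved to 0.19 and 0.17 with limma on log2(TPM + 0.1) and log2(TPM + 1), where the median of all genes was 0.058 and 0.046. It was 0.17 in the tumors not numbered 1 and 2, -0.0092 in tumors 1 and 2, and 0.046 to 0.11 without 1 tumor. The median of the core list moved to 0.050 and 0.037 with limma and to -4.51e-05 without both muscle-containing tumors, and was -0.097 to -0.017 without 1 tumor. The cause was not tested.

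Of the named genes 7 changed sign under some alternative. Trp53 was at 0.058 and 0.056 with limma, 0.0089 with length offsets, 0.062 in tumors 1 and 2, and -0.13 to 0.079 without 1 tumor. With its sign unchanged, Trp53 was at -0.34 without the muscle-containing tumors. It was at -0.099 without the satellite-read tumors and -0.12 in the tumors not numbered 1 and 2. Mdm2 was at -0.0092 in tumors 1 and 2. Mdm4 was at 0.23 and 0.22 with limma, 0.19 with length offsets, 0.12 in tumors 1 and 2, 0.073 without the muscle-containing and 0.25 without the satellite-read tumors, and -0.14 to 0.070 without 1 tumor. Bax was at -0.0023 with DESeq2 size factors, -0.0051 with DESeq2, -0.011 with length offsets, -0.20 in tumors 1 and 2, -0.027 without the muscle-containing and -0.21 without the satellite-read tumors, and -0.11 to 0.12 without 1 tumor. Bcl2 was at 0.14 without the muscle-containing and 0.13 without the satellite-read tumors, and -0.31 to 0.012 without 1 tumor. Bcl2l1 was at 0.019 in the tumors not numbered 1 and 2, and Ei24 at -0.14 in tumors 1 and 2. The share of the leading Trp53 transcript differed by -0.0028 to 9.32 percentage points without 1 tumor.

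Both groups share the numbers 1, 2 and 3. Deviations from the group means correlated at 0.04, 0.67 and 0.57 between tumors of the same number. Vehicle tumor 1 and SR59230A tumor 2, of unlike number, also correlated at 0.67, so the numbers were not taken to pair the tumors. SR59230A tumor 1 correlated at only 0.04 and 0.09 with vehicle tumors 1 and 2, which limits the reading of tumors 1 and 2 as a set. With the replicate block in these tumors 2 genes were called in all, 1 without it, and 0 members in either. With the block and, as an alternative chosen after seeing the data, without it, Trp53 was at 0.070 and 0.069, Mdm2 at -0.0078 and -0.0071, Mdm4 at 0.038 and 0.019, and Bax at -0.014 and -0.036.

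Depth limits Perp (3 to 10 reads), Pmaip1 (9 to 39) and Fas (12 to 36), for which a few reads can decide the value. Eda2r, at 14 to 105 reads, was also shallow in some tumors.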
